A study of Rattus norvegicus with 2 samples.

Results

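Sensory neurons with little RNA of the neuropeptide genes Calca and Tac1 were examined in dorsal root ganglia (DRGs) of rats with diabetic peripheral neuropathy (DPN) and of control rats. The DPN library pooled the bilateral L3 to L6 ganglia of 5 male SD rats that had received 65 mg/kg streptozotocin (STZ), a toxin of the insulin-producing beta cells, and the Control library pooled those of 5 rats that had received citrate buffer. Rats were 8 weeks old at the start and tissue was taken 8 weeks after the injection. Cells were captured with the 10x Genomics 3′ assay, in which each captured RNA molecule carries a unique molecular identifier (UMI), and the values are UMI counts. A barcode entered the group if it had at least 500 UMIs, fewer than 20% of them from mitochondrial genes, at least 30 UMIs per 10000 and at least 15 UMIs in all from Stmn2, Prph, Snap25, Nefl and Nefm, and fewer than 50 UMIs per 10000 from Calca and Tac1. This rule kept 222 low-Calca neurons of 24179 barcodes, 143 in the DPN library and 79 in the Control library. The same rule with Calca and Tac1 at or above 50 per 10000 gave 100 and 61 peptidergic neurons, which serve for comparison. The cells were thus selected on their own depth, mitochondrial share and levels of the neuron genes, Calca and Tac1, and those values are given as description. The cells nearest to the limits had 46.4 (DPN) and 43.1 (Control) Calca and Tac1 UMIs per 10000 inside and 51.2 and 56.7 outside, and 34.1 and 30.1 UMIs per 10000 of the neuron genes inside and 29.6 and 26.0 outside.

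DRG neurons carry touch, temperature, itch and pain from the body to the spinal cord. Peptidergic nociceptors release calcitonin gene-related peptide (from Calca) and substance P (from Tac1). Non-peptidergic nociceptors instead depend on GDNF-family growth factors through the receptor Ret and carry the ATP-gated channel P2rx3. C low-threshold mechanoreceptors (C-LTMRs) respond to gentle touch, pruriceptors with Sst and Nppb to itch, and cold-sensing neurons carry the channel Trpm8. Large myelinated neurons for touch and position sense are rich in the neurofilament heavy chain Nefh and, in part, in parvalbumin (Pvalb) and Ntrk3. Each condition was 1 library, so no test between conditions was possible, and intervals given here cover counting error only. Differences between rats, dissociations and captures cannot be told apart from DPN.

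Low-Calca neurons were 1.21% of the DPN barcodes within the UMI and mitochondrial limits (143 of 11782, exact binomial 95% interval 1.02 to 1.43%) and 0.786% of the Control barcodes (79 of 10052, 0.623 to 0.979%). They were 58.8% of gated neurons in DPN and 56.4% in Control (intervals 52.4 to 65.1% and 47.8 to 64.8%). The neurons were far deeper than other barcodes. Their median was 88870 UMIs in DPN (range 971 to 222141) and 109008 in Control (643 to 264243), against 5878 and 9564 in barcodes that were not gated as neurons. Depth varied widely within the group. Cells of at least 10000 UMIs, called deep cells here, numbered 98 in DPN and 57 in Control and held 98.8% and 99.0% of the UMIs. Cells of at least 2000 but under 10000 UMIs numbered 35 and 15, and shallower cells 10 and 7. Limits of 4 median absolute deviations on UMIs and genes, of the kind stated in the study's methods, would leave 48 DPN and 24 Control cells and remove 95 and 55. No barcode of these cells occurred in both libraries, although 38 barcodes of the whole series did.

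**Figure D1:**
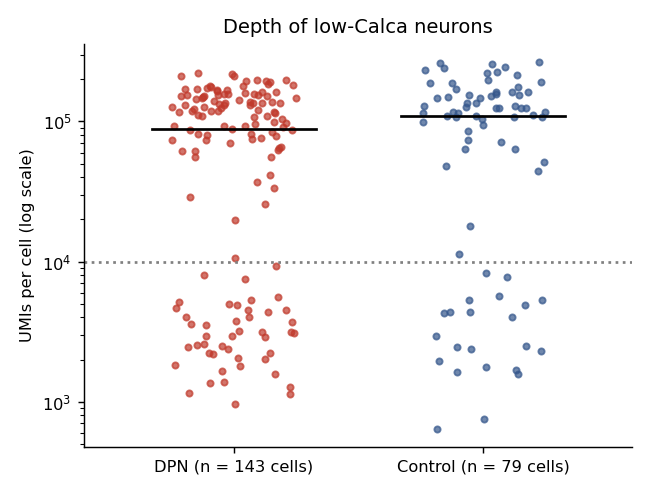
UMIs per cell (vertical axis, log scale) of the low-Calca neurons of the DPN library (left) and the Control library (right). Points are cells, the bar is the median (88870 and 109008 UMIs), and the dotted line marks 10000 UMIs, above which 98 DPN and 57 Control cells lay.

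The label of the group was checked against markers. Levels are given as CPM, the UMIs of a gene summed over the cells of a library per 1000000 of their UMIs. P2rx3 reached 453 CPM in DPN low-Calca neurons (Poisson 95% interval 442 to 466) and 414 CPM in Control (400 to 429), against 106 and 114 CPM in peptidergic neurons and 9.92 and 5.54 CPM in other barcodes. Gfra2, the co-receptor for neurturin, had 258 and 364 CPM in low-Calca and 15.5 and 10.55 CPM in peptidergic neurons. That is 16.6-fold (13.9 to 19.8) and 34.5-fold (27.3 to 44.3) higher in low-Calca neurons, so the gap was present in both libraries. Ret had 380 and 464 CPM in low-Calca against 126 and 206 CPM in peptidergic neurons, and Scn11a, the channel Nav1.9, 468 and 344 CPM against 235 and 167 CPM. Acpp, which encodes the prostatic acid phosphatase long used to mark non-peptidergic terminals, had 520 and 577 CPM against 28.2 and 103 CPM. The regulator of G protein signalling Rgs10 was the most abundant of the non-peptidergic list, at 2013 and 2436 CPM against 337 and 583 CPM.

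Here and below a gene is called higher or lower if its ratio was at least 1.5-fold in that direction and its exact 95% interval left out 1, among genes with at least 50 UMIs over the groups compared. Between low-Calca and peptidergic neurons, 12.1% of 10160 genes were higher and 10.1% lower in DPN, and 12.6% and 8.3% of 8915 genes in Control. Since Calca and Tac1 divided the classes, differences between them are a description of that division. Of the non-peptidergic list, 15 of 20 genes compared were higher in DPN low-Calca neurons and 14 of 18 in Control, and the same 14 genes were so in both. Of the C-LTMR list, 9 of 11 and 10 of 11 were higher, 9 of them in both. Exoc1l, at 190 and 268 CPM against 4.03 and 8.64 CPM, and Tafa4, a secreted protein of C-LTMRs, at 34.1 and 42.7 CPM against no UMI in peptidergic neurons, were among them. Genes of the peptidergic list mostly lay the other way, with 14 of 24 lower and 4 higher in DPN, and 13 of 21 lower and 4 higher in Control. Both counts of lower genes include Calca and Tac1, whose direction the rule fixed. Gfra3, the artemin receptor, had 46.7 and 76.2 CPM against 216 and 409 CPM and Adcyap1, the precursor of the peptide PACAP, 16.7 and 13.4 CPM against 515 and 477 CPM. The capsaicin channel Trpv1 was at like levels in both classes, 146 and 176 CPM against 146 and 226 CPM, as was the channel Scn10a (Nav1.8), 287 and 291 CPM against 221 and 249 CPM. Of the Sst and Nppb list, 2 of 11 genes compared were higher and 5 lower in DPN low-Calca neurons, and 0 and 3 of 7 in Control.

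**Figure D2:**
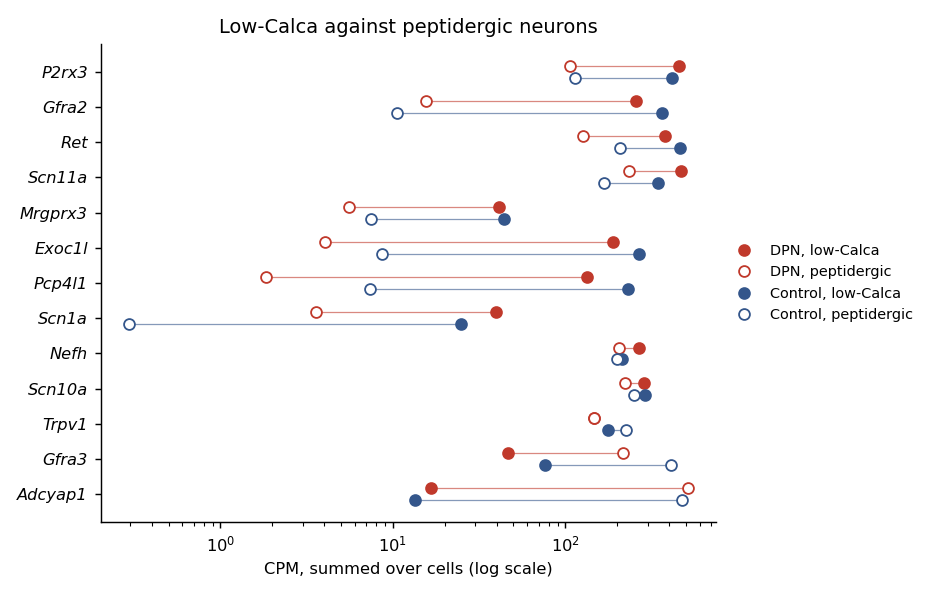
Summed CPM (horizontal axis, log scale) of 13 genes in low-Calca neurons (filled) and peptidergic neurons (open) of the DPN (red) and Control (blue) libraries. P2rx3, Gfra2, Ret, Scn11a, Mrgprx3, Exoc1l, Pcp4l1 and Scn1a lay to the right in low-Calca neurons, Gfra3 and Adcyap1 to the left, and Nefh, Scn10a and Trpv1 were close together.

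Members of the neurofilament list were unevenly present. Nefh had 267 CPM in DPN and 213 CPM in Control low-Calca neurons and 205 and 200 CPM in peptidergic neurons, a difference under 1.5-fold in each library. Its deep-cell values ran from 9.22 to 2026 CPM in DPN (median 187 CPM) and from 0 to 1885 CPM in Control (median 113 CPM). Pvalb, which marks proprioceptors, had 1 UMI in DPN and 2 in Control over all the cells, and Runx3, a transcription factor of proprioceptors, had none in either library. Ntrk3, the neurotrophin-3 receptor, had 57 and 18 UMIs. Other members were abundant, such as Ldhb at 217 and 215 CPM, and several were above peptidergic neurons in both libraries. Scn4b, a sodium channel beta subunit, had 151 and 181 CPM against 20.3 and 9.38 CPM, Scn1a (Nav1.1) 39.5 and 24.8 CPM against 3.57 and 0.293 CPM, and Pcp4l1 134 and 231 CPM against 1.84 and 7.33 CPM. In all, 15 of 32 list members compared were higher and 6 lower than in peptidergic neurons in DPN, and 14 and 4 of 28 in Control. In both libraries 11 were higher and 3 lower, Asic1, described below, among the lower.

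The cells were divided into 8 clusters from both libraries together, which are described by their leading genes with no test, since clustering used them. Cluster 1 (33 DPN and 18 Control cells) was C-LTMR-like, led by Exoc1l, Pcp4l1, Tafa4 and P2ry1, with Gfra2 at 544 and 849 CPM. A pair of C-LTMR genes known from mouse were not part of this pattern: no UMI of Slc17a8 was found in any low-Calca neuron, and 54.7% of the DPN and 96.6% of the Control Th UMIs came from 1 cell each. Cluster 2 (28 and 22 cells) was non-peptidergic nociceptor-like, with Mrgprx3 (108 and 112 CPM), P2rx3 (946 and 867 CPM) and Lpar3 among its 30 leading genes. Its first genes were Kcnip1, Pkib and Crh. Cluster 3 (19 and 11 cells) was led by Rbp2, Etv1 and Sst, with Calca at 2096 and 1772 CPM, P2rx3 at 359 and 458 CPM and almost no Gfra2 (4.13 and 1.18 CPM). Cluster 4 (18 and 9 cells) was led by Pcp4, Tac1 and Rxfp1, with little Scn11a (5.25 and 4.35 CPM), and held as many leading markers of the peptidergic as of the cold list, so it was left unnamed. Cluster 7 (13 and 3 cells) was led by Nppa, Ly6h, Kit and Whrn. It had the most Nefh of the 8 clusters (936 and 1465 CPM) and almost no Ret (2.65 and 2.87 CPM).

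Clusters 5, 6 and 8 were shallow and stayed unnamed. Cluster 5 (9 and 10 cells, median 4503 UMIs) had 4 genes of the Schwann cell (SC) list, Emp1 among them, in its 10 leading genes, and cluster 8 (11 and 1 cells, none of them deep) had the glial gene Tyrp1 among its leading genes. In cluster 6 (12 and 5 cells, median 4351 UMIs) a single locus, AC134224.3, held 22.1% of the DPN and 22.8% of the Control UMIs, against 1.03% and 1.06% over all low-Calca neurons. Clusters 5 and 6 held 3 and 2 deep cells, so nearly all cells of these clusters were shallow.

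**Figure D3:**
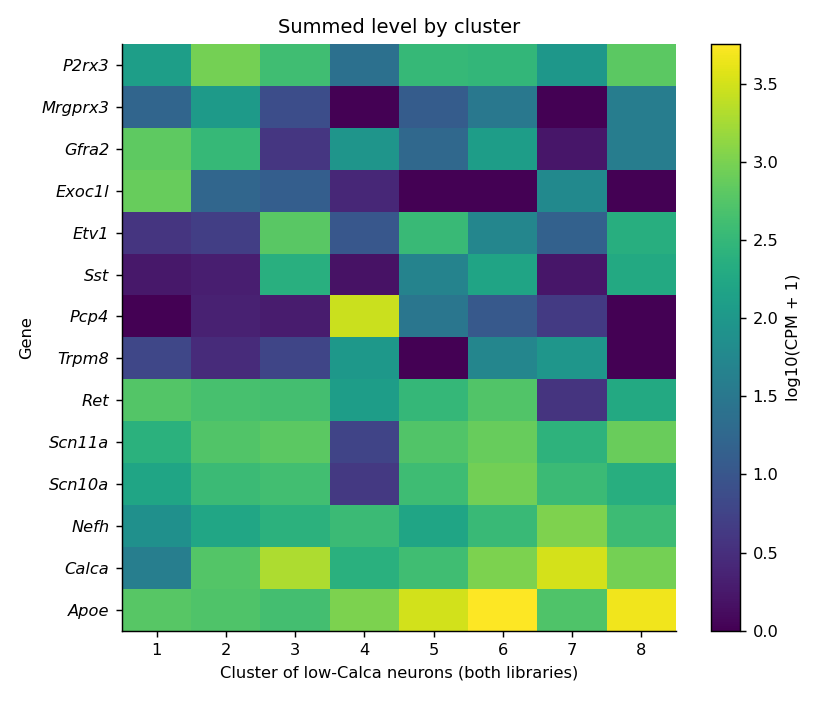
Summed level, as log10(CPM + 1) over both libraries (colour), of 14 genes (rows) in the 8 clusters of low-Calca neurons (columns). Exoc1l and Gfra2 stood out in cluster 1, P2rx3 and Mrgprx3 in cluster 2, Etv1 in cluster 3, Pcp4 in cluster 4, Nefh in cluster 7, and Apoe in the shallow clusters 5, 6 and 8.

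Genes were also counted together within deep cells. At least 10 UMIs of P2rx3 were present in 61 of 98 DPN and 38 of 57 Control deep cells, and of Gfra2 in 56 and 37, with both in 35 and 23. Each cell with 10 or more UMIs of Mrgprx3, a rat Mrgpr-family receptor (19 and 9 cells), also had 10 of P2rx3, and each cell with that many of Tafa4 (18 and 16) also had 10 of Gfra2.

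To ask how DPN cells differed from Control cells, UMIs were summed per library. Of 9895 genes, 18.7% were higher and 3.13% lower in DPN low-Calca neurons, with a median log2 ratio of 0.06. The excess of higher genes was not particular to these cells, since 21.7% of 9252 genes were higher and 4.46% lower in peptidergic neurons, and 33.6% of 13747 and 2.21% in other barcodes of the same libraries. Values in peptidergic neurons are therefore given beside many of the results. Over the non-peptidergic list, 2 of 19 genes with enough UMIs were higher and 0 lower (median log2 ratio -0.02). The counts were 3 and 0 of 11 for C-LTMR genes (-0.20), 7 and 0 of 9 for the Sst and Nppb list (1.56), 4 and 0 of 7 for the cold list (1.10) and 5 and 4 of 30 for the neurofilament list (-0.11). In peptidergic neurons the Sst and Nppb list had 7 higher and 0 lower of 9 (1.95), close to its count in low-Calca neurons.

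Of the non-peptidergic list, 17 of 19 genes were called neither higher nor lower, although several intervals left out 1. Gfra2, also on this list, is given below with the C-LTMR genes. P2rx3 had a ratio of DPN to Control of 1.09 (1.05 to 1.14), Ret 0.82 (0.785 to 0.857), Scn11a 1.36 (1.301 to 1.43), Mrgprx3 0.938 (0.817 to 1.08) and Acpp 0.902 (0.869 to 0.937). Deep cells overlapped throughout, with medians for P2rx3 of 270 CPM in DPN and 307 CPM in Control and highest cells of 1674 and 1510 CPM. Runx1, a transcription factor that sets the non-peptidergic fate, was at 51.1 and 51.8 CPM. Plxnc1, a semaphorin receptor, was the exception among abundant members, at 52.7 CPM in DPN and 11.4 CPM in Control (ratio 4.63, 3.71 to 5.83). Plxnc1 had UMIs in 83 of 98 DPN and 40 of 57 Control deep cells, with medians of 34.1 and 7.99 CPM, and was also higher in DPN peptidergic neurons (4.61 and 1.76 CPM, ratio 2.62). The other higher gene of the list was Casz1, with 48 and 17 UMIs. Mrgprd, which defines this class in mouse, had 1 UMI in DPN and 0 in Control.

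C-LTMR genes went both ways. Gfra2 was at 258 CPM in DPN and 364 CPM in Control (0.707, 0.672 to 0.744), Exoc1l at 190 and 268 CPM (0.709, 0.668 to 0.752) and Tafa4 at 34.1 and 42.7 CPM (0.799, 0.691 to 0.925), none past 1.5-fold. Piezo2, the mechanically gated channel of touch neurons, lay the other way, at 128 and 48.2 CPM (2.65, 2.37 to 2.97). Its deep-cell median was 117 CPM in DPN and 40.5 CPM in Control, with highest cells of 559 and 218 CPM, so the median and the highest cell were both higher in DPN although the cells overlapped. Within cluster 1 Piezo2 had 206 and 74.7 CPM, within cluster 2 97.8 and 35.4 CPM and within cluster 3 121 and 56.8 CPM. It was also higher in DPN peptidergic neurons, at 36.7 and 11.1 CPM. P2ry1, a purinergic receptor, was at 28.3 and 14.1 CPM (1.999, 1.61 to 2.49), and Bnc2 at 31.5 and 20.6 CPM (1.52, 1.27 to 1.84), which was within 1.5-fold with each cell weighing the same (1.09), under median-ratio scaling (1.46) and with Calca and Tac1 under 100 per 10000 (1.39).

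Sst, the precursor of somatostatin, had the highest ratio of the genes ranked. It had 1030 UMIs in DPN and 8 UMIs in Control low-Calca neurons, or 84.6 and 1.001 CPM (ratio 84.5, 42.7 to 196). The difference rested on few cells. Of the DPN UMIs, 997 came from cluster 3, where 9 of 19 DPN cells had a UMI, 5 had at least 10 and 1 cell had 464, while none of its 11 Control cells had any. Without the highest cell of each library the levels were 47.1 and 0.503 CPM. The ratio also depended on the gate, at 8.19 with Calca and Tac1 under 25 and 6.90 under 100 per 10000, 19.4 under 10% mitochondrial UMIs and 19.45 without likely doublets. At least 10 UMIs were thus present in 5 of 98 DPN deep cells (5.10%, 1.68 to 11.5%) and 0 of 57 Control deep cells (exact interval 0 to 6.27%), so the intervals overlap. The 5 cells also had at least 10 UMIs of Etv1 and of P2rx3, and none had 10 of Gfra2. Etv1 itself, a transcription factor, was level within cluster 3 (602 and 645 CPM). Peptidergic neurons of the same libraries had 956 and 115 CPM of Sst, and other barcodes 23.8 and 0.824 CPM. Other barcodes held more neuron RNA in DPN, with genes shared by all sensory neurons at a summed 902 and 465 CPM. The part of free RNA in the Sst level of other barcodes was not tested. The promoter region of Sst is shown because this gene had the widest gap, as given by RefSeq for assembly GRCr8 (chr11:90461296-90461595, + strand), 5′ to 3′, with the cyclic AMP response element TGACGTCA in capitals.
Sst: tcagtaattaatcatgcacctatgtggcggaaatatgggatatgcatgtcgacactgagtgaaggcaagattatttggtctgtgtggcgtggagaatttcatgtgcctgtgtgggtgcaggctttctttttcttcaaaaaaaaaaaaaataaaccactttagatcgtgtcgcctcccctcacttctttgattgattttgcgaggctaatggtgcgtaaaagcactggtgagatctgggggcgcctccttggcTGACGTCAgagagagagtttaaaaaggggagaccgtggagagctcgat
The element was found once, at bases 253 to 260 of the 300 printed. Its 8 letters read the same on both strands, and 612 of 33469 rat promoter windows of this length (1.83%) held them. The match is a description of these letters and not evidence of a bound factor.

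Other members of the Sst and Nppb list were low or were spread over more cells. Nppb, the itch transmitter, had 48 and 13 UMIs, of which 1 cell held 77.1% in DPN and 100% in Control. Il31ra, the receptor for the itch cytokine IL-31, had 32 and 0 UMIs, 27 of them in 1 cell. Jak1, the kinase downstream of cytokine receptors, was at 124 and 40.4 CPM (3.06, 2.71 to 3.47), with deep-cell medians of 80.9 and 34.4 CPM, although 1 DPN cell held 320 of 1507 UMIs. The ratio of Jak1 was 1.26 within 4 median absolute deviations and 1.67 with each cell weighing the same. Lifr, a receptor subunit of the leukemia inhibitory factor, was at 68.3 and 20.5 CPM (3.33, 2.81 to 3.96), with medians of 58.6 and 15.5 CPM. Both were found in most deep cells and were also higher in DPN peptidergic neurons, Jak1 at 330 and 61.1 CPM and Lifr at 73.9 and 19.2 CPM. Lifr was at a ratio of 0.990 within 4 median absolute deviations and 1.19 with each cell weighing the same. Plcb3, a phospholipase of receptor signalling, was at 22.3 and 6.51 CPM, and Cysltr2 and S1pr1 were the remaining higher members, each with few UMIs. Cysltr2 turned to a ratio of 0.449 with each cell weighing the same. Tspan8, the most abundant member, had 1124 and 1179 CPM.

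Trpm8, the channel opened by cold and menthol, was at 29.7 CPM in DPN and 3.75 CPM in Control (362 and 30 UMIs, ratio 7.92, 5.45 to 11.9). At least 10 UMIs were present in 11 of 98 DPN deep cells (11.2%, 5.74 to 19.2%) and 0 of 57 Control deep cells (exact interval 0 to 6.27%), and the intervals overlap. Those 11 cells lay in clusters 4 and 7. In cluster 4 Trpm8 had 177 and 17.4 CPM and in cluster 7 116 and 20.1 CPM. In cluster 1, 20 of 33 DPN and 2 of 18 Control cells had 1 to 3 UMIs. Trpm8 was also higher in other DPN barcodes, at 0.483 and 0.100 CPM, where 22 of 25 genes shared by all sensory neurons were higher too. After thinning to 1000 UMIs a UMI was found in 3.52% (1.15 to 8.03%) of DPN and 0 of 77 Control low-Calca neurons (exact interval 0 to 4.68%), against 0.103% of DPN and 0 of 688 Control endothelial barcodes. Without thinning the shares were 43.4% and 15.2% of low-Calca neurons and 0.188% and 0% of the less deep endothelial barcodes. Peptidergic neurons had 8.87 and 1.32 CPM. Of the other cold-list genes, Kcnk18, a background potassium channel, was higher at 7.97 and 2.38 CPM, whereas Rxfp1 (7.06 and 7.51 CPM) and Foxp2 (48 and 32 UMIs), which lead the cells of cluster 4, were level. Cdh8 (62 and 19 UMIs) and Lcorl (41 and 9 UMIs) were the remaining higher members, but with each cell weighing the same their ratios were 1.45 and 0.766.

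In the neurofilament list the genes past 1.5-fold split between directions. Asic1, an acid-sensing channel, was at 46.4 CPM in DPN and 89.3 CPM in Control (0.52, 0.464 to 0.581). Deep cells had medians of 26.0 and 60.7 CPM with wide overlap, and peptidergic neurons showed 98.5 and 291 CPM. Pcp4l1, a calmodulin-binding protein, was at 134 and 231 CPM (0.579, 0.542 to 0.620), Spp1 (osteopontin) at 12.6 and 26.4 CPM (0.476, 0.384 to 0.589) and Chodl at 5.26 and 8.63 CPM (64 and 69 UMIs, 0.609). Among cells under 10% mitochondrial UMIs the ratios of Asic1 (3.21), Pcp4l1 (2.13) and Chodl (7.52) turned the other way, as did Asic1 within 4 median absolute deviations (2.06). Under 10% mitochondrial UMIs Spp1 was within 1.5-fold (0.668). With each cell weighing the same Asic1 (0.709) and Pcp4l1 (0.785) were within 1.5-fold. Higher members were Calb1, the calcium buffer calbindin (18.7 and 8.63 CPM), Scn1a (39.5 and 24.8 CPM), Kcna1 (18.0 and 11.1 CPM), Scn8a (54 and 12 UMIs) and Ntrk3 (4.68 and 2.25 CPM). Kcna1 was at a ratio of 0.985 under 10% mitochondrial UMIs, and Scn1a at 1.36 with AY172581 genes counted as mitochondrial. Nefh was at a ratio of 1.25 (1.18 to 1.33), and the further members Etv1, Vamp1, Cplx1 and Ldhb were within 1.5-fold.

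**Figure D4:**
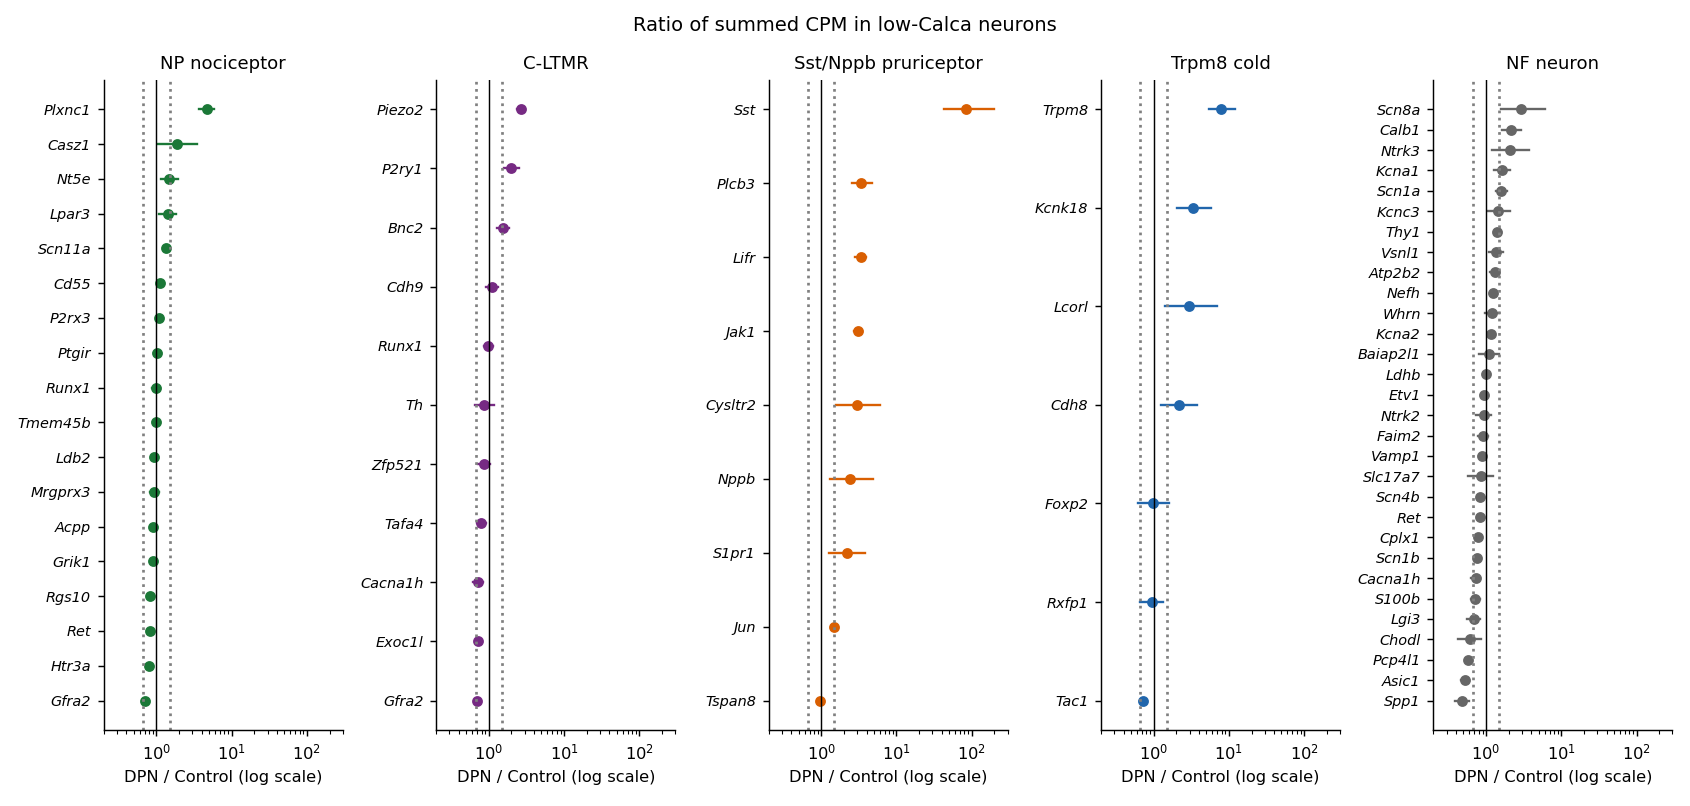
Ratio of summed CPM, DPN over Control (horizontal axis, log scale), of list members with at least 50 UMIs in low-Calca neurons, in 5 panels by subtype list. Points are ratios, bars exact 95% counting intervals, the solid line marks 1 and the dotted lines 1.5-fold. Most non-peptidergic genes lay between the 1.5-fold lines and Plxnc1 (4.63) and Casz1 (1.85) beyond them, while Sst (84.5) and Trpm8 (7.92) lay far to the right.

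Among ion channels, Scn9a, which encodes the pain-related channel Nav1.7, was abundant in both libraries. It was at 438 CPM in DPN and 214 CPM in Control (2.05, 1.94 to 2.17). Deep cells ran from 0 to 1888 CPM in DPN (median 410 CPM) and from 91.3 to 560 CPM in Control (median 201 CPM), and no single cell held over 4.45% of the UMIs. The gap was of like size in each cluster of deep cells, with 412 and 224 CPM in cluster 1, 388 and 171 CPM in cluster 2, 433 and 209 CPM in cluster 3, 450 and 264 CPM in cluster 4 and 705 and 348 CPM in cluster 7. Peptidergic neurons had 426 and 232 CPM, so the gap was common to both neuron classes. Other barcodes had 19.4 and 6.59 CPM, but 22 of 25 genes shared by all sensory neurons were higher there in DPN. The part of free neuron RNA in the Scn9a level of other barcodes was not tested. Among the 48 DPN and 24 Control cells within 4 median absolute deviations the ratio of Scn9a was 1.23 and not past 1.5-fold. Of the sodium channel list 6 of 14 genes were higher (42.9%, against 18.7% of all genes) and 0 lower, with 4 and 0 of 11 in peptidergic neurons. Besides Scn9a these were Ank3, Scn1a, Scn2b, Scn3a and Scn8a in low-Calca neurons, while Scn10a (0.985, 0.934 to 1.04) was level. With each cell weighing the same Scn3a turned to a ratio of 0.455.

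Potassium and HCN channel genes were higher in 8 and lower in 1 of 31 (25.8% and 3.23%, against 18.7% and 3.13% of all genes). In peptidergic neurons 8 of 28 were higher and 4 lower. Kcna4 was at 36.5 and 22.0 CPM, Kcnma1, the large-conductance calcium-activated channel, at 27.4 and 13.8 CPM, Kcnq5 at 30.1 and 12.5 CPM, and the pacemaker channel Hcn2 at 10.9 and 4.003 CPM. In peptidergic neurons Kcna4 (24.1 and 23.9 CPM) and Kcnq5 (138 and 119 CPM) were within 1.5-fold and Hcn2 (10.6 and 3.08 CPM) was higher. Under 10% mitochondrial UMIs Kcna4 (1.17) and Kcnq5 (1.298) were within 1.5-fold. Kcnq5 was a leading gene of cluster 7, at 222 CPM over both libraries against 7.44 CPM in the other low-Calca neurons. That cluster held 13 DPN and 3 Control cells. With each cell weighing the same Kcnma1 was at a ratio of 0.904. Kcns3, a modifier subunit, was at 35.2 and 52.8 CPM (0.666, 0.581 to 0.764), which fell within 1.5-fold (0.680) without the highest cell of each library. Of the calcium channel list, 3 of 15 were higher (20%, near the share of all genes) and 0 lower, with 5 and 0 of 13 in peptidergic neurons. Cacna2d1, the subunit bound by gabapentin, was at 94.1 and 41.9 CPM (2.25, 1.99 to 2.54) and at 298 and 139 CPM in peptidergic neurons. Of the transduction channels, 7 of 21 were higher (33.3%) and 1 lower, with 6 and 3 of 21 in peptidergic neurons. Trpa1, the receptor for irritants, had the next widest gap after Trpm8, at 8.79 and 1.25 CPM (107 and 10 UMIs). It was found in 28 DPN and 3 Control deep cells, in DPN mostly of clusters 2 and 3, and 1 Control cell held 70.0% of the Control UMIs. Peptidergic neurons had 45.6 and 15.5 CPM of Trpa1. Trpv1 was at 146 and 176 CPM (0.829, 0.773 to 0.890).

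**Figure D5:**
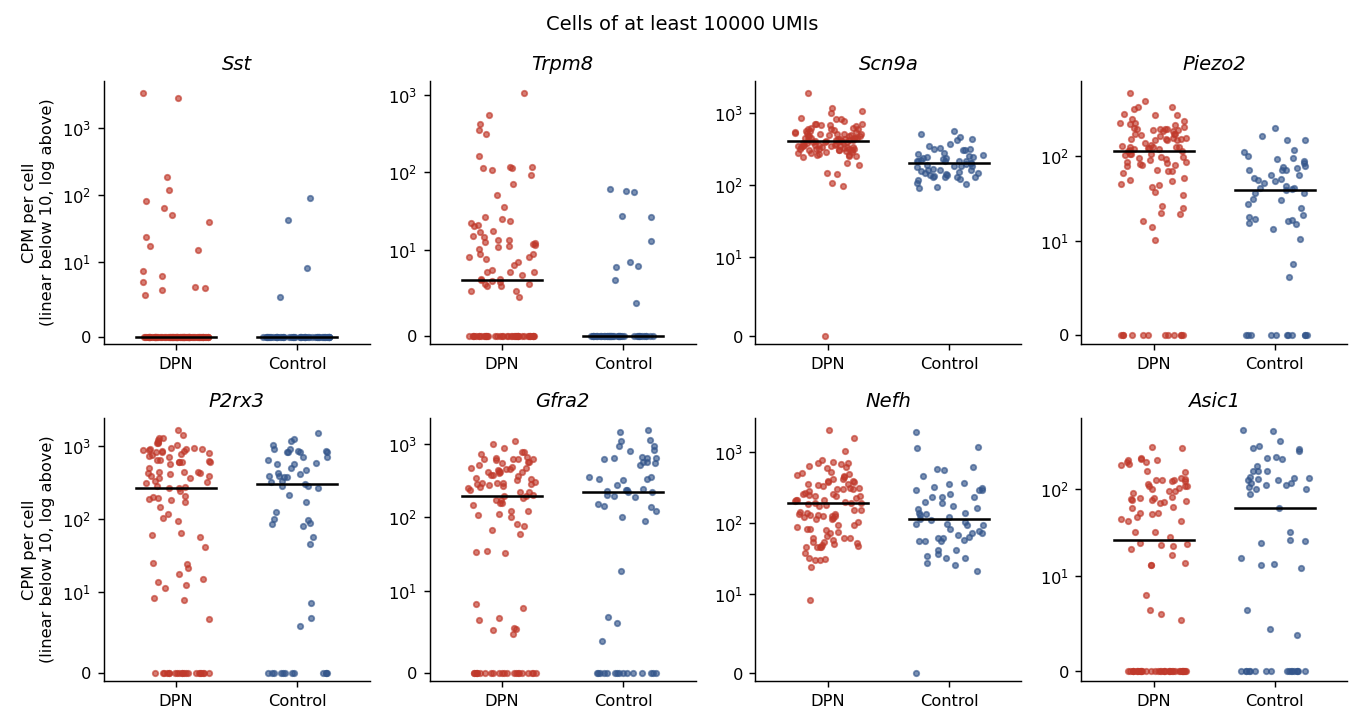
CPM per deep cell (vertical axis, linear below 10 and log above) of 8 genes in the DPN (left) and Control (right) libraries, with points for cells and bars for medians. Scn9a (medians 410 and 201 CPM) and Piezo2 (117 and 40.5 CPM) were shifted across cells, Sst and Trpm8 differed through a minority of DPN cells, and P2rx3, Gfra2 and Nefh overlapped widely.

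Of the growth factor receptor list, 5 of 15 genes were higher (33.3%, against 18.7% of all genes) and 1 lower, with 6 and 4 of 14 in peptidergic neurons. Il6st (gp130, the shared subunit of interleukin 6 receptors) was at 15.1 and 4.88 CPM, but at a ratio of 0.990 with each cell weighing the same, and Insr, the insulin receptor, at 7.23 and 4.13 CPM, with 10.4 and 5.86 CPM in peptidergic neurons. Gfra3 was lower at 46.7 and 76.2 CPM (0.613, 0.546 to 0.689) and was also lower in DPN peptidergic neurons, but within 1.5-fold (0.815) with Calca and Tac1 under 25 per 10000. Of the injury list, 7 of 19 were higher (36.8%) and 1 lower, with 6 and 3 of 19 in peptidergic neurons. Gal, the precursor of the injury peptide galanin, had 743 and 30 UMIs, but 465 of the DPN UMIs lay in 1 cell. Without the highest cell of each library Gal was at 23.0 and 2.81 CPM, and with Calca and Tac1 under 100 per 10000 its ratio was 3.61. Peptidergic neurons had 254 and 217 CPM of Gal, a ratio of 1.17. Atf3, the usual marker of axotomy, had deep-cell medians of 57.0 CPM in DPN and 56.1 CPM in Control. Reg3b, a lectin made by injured neurons, was at 48.1 and 8.88 CPM (5.41, 4.22 to 7.02), with most of its UMIs in cluster 2 and 200 of 585 DPN UMIs in 1 cell. In peptidergic neurons Reg3b had 0.115 and 13.5 CPM. Among the 49 DPN and 32 Control cells under 10% mitochondrial UMIs Reg3b turned to a ratio of 0.816. Crh, the precursor of corticotropin-releasing hormone, was lower at 27.4 and 43.9 CPM (0.623, 0.535 to 0.726), but without the highest cell of each library it was at 0.764 and no longer past 1.5-fold. Stmn4 lost its call in the same way (1.33).

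Genes shared by all sensory neurons were mostly level, with 3 of 26 higher and 0 lower. Prdm12, a transcription factor required for nociceptors, was the widest, at 38.8 and 6.76 CPM (5.74, 4.32 to 7.75), with 44.9 and 6.01 CPM in peptidergic neurons. Of 13 transcripts that are long or kept in the nucleus 9 were higher and 0 lower, among them Ank2 (384 and 98.5 CPM), Kmt2a (29.8 and 7.26 CPM) and Srrm2 (161 and 74.2 CPM), and in peptidergic neurons 11 of 13 were higher. Cytosolic ribosomal protein genes were higher in 0 and lower in 2 of 32 (median log2 ratio -0.21), and nuclear genes of oxidative phosphorylation in 0 and 0 of 31 (-0.19). Of the mitochondrial genome 5 of 13 genes were higher, Mt-nd6 the most, at 96.3 and 20.1 CPM. Fos was at 249 and 133 CPM, against 336 and 130 CPM in peptidergic neurons. Of the remaining lists, 4 peptidergic genes of 22 were higher and 2 lower, 7 axon cytoskeleton genes of 31 and 7 synaptic vesicle genes of 30 were higher and 0 lower, and 3 immediate early genes of 20 were higher and 2 lower. Glycolysis genes were higher in 4 and lower in 1 of 22, ER stress genes in 3 and 0 of 22, heat shock genes in 1 and 2 of 15, and neuron genes named by the study in 5 and 0 of 22. Beside these counts, 18.7% of all genes compared were higher and 3.13% lower. Whether these lists had a part in the differences of the channel and receptor genes above was not tested.

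Most markers of satellite glial cells (SGCs) and fibroblasts with enough UMIs were lower in DPN low-Calca neurons. Of the SGC list, 0 of 13 were higher and 8 lower (median log2 ratio -0.80), against 18.7% and 3.13% of all genes. In peptidergic neurons 1 of 13 was higher and 2 lower (-0.17). Apoe was at 447 and 896 CPM, Dbi at 222 and 338 CPM, Tyrp1 at 7.31 and 24.5 CPM and Fabp7 at 4.44 and 13.8 CPM. The summed SGC list was at 1048 and 1701 CPM in low-Calca neurons, 1233 and 1580 CPM in peptidergic neurons and 55448 and 80559 CPM in other barcodes. Across deep low-Calca cells its median was 736 CPM in DPN and 1347 CPM in Control, with highest cells of 34571 and 14268 CPM. The fibroblast list was at 20.5 and 64.8 CPM, with 0 of 6 genes higher and 5 lower, and 1 and 1 of 3 in peptidergic neurons. However, 91 of the 126 Control UMIs of Dcn lay in 1 cell. Without the highest cell of each library Dcn was within 1.5-fold (0.738, 0.457 to 1.20). The summed SC list was level at 1093 and 1100 CPM, with 2 of 11 genes higher and 4 lower, and 4 and 1 of 10 in peptidergic neurons. Endothelial genes were higher in 0 and lower in 2 of 7, mural genes in 1 and 0 of 3, the single macrophage gene with enough UMIs in 0 and 0, and the single T and NK gene, Cd2 (84 and 7 UMIs), in 1 and 0. No neutrophil or red blood cell gene reached 50 UMIs. The part of glial RNA in the other differences was not tested.

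The ranking left out 245 genes with clone or locus names that otherwise passed its limits. Among the genes ranked the 10 highest ratios were those of Sst, Gal, Tbc1d5, Trpm8, Clcn5, Brsk2, Trpa1, Ust, Trio and Prpf39. The members not yet described had between 94 and 143 UMIs in DPN and 9 to 13 in Control and no more than 9 UMIs in any cell, so they were thinly spread over many cells. Brsk2, a kinase of axon polarity, had UMIs in 72 of 143 DPN and 11 of 79 Control cells, and Tbc1d5 in 64 and 9. Each of these 6 was also higher in DPN in peptidergic neurons (3.87-fold to 15.5-fold) and in other barcodes (1.92-fold to 3.47-fold). The 10 lowest ratios belonged to S100a16, Ptgds, Dcn, Fbln2, Oaf, Acot1, Egfl8, Tyrp1, Igfbp4 and Mmd2. Ptgds, an SGC-rich prostaglandin synthase, was at 3.70 and 19.6 CPM (0.188, 0.132 to 0.264). For S100a16, 73 of the 148 Control UMIs lay in 1 cell, and with each cell weighing the same it was within 1.5-fold (0.799). Under 10% mitochondrial UMIs Ptgds (0.716), Acot1 (0.829) and Igfbp4 (0.778) were within 1.5-fold.

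Shares of cells with a UMI depend on depth, so cells were thinned to 1000 UMIs each, leaving out 1 DPN and 2 Control cells below that. P2rx3 was then found in 26.1% of DPN (37 of 142, 19.1 to 34.1%) and 32.5% of Control low-Calca neurons (25 of 77, 22.2 to 44.1%), against 0.822% and 0.291% of endothelial barcodes, which should lack it. Without thinning these shares were 65.04% and 73.4%, against 6.197% and 3.78% of endothelial barcodes (median depths 8751 and 9231 UMIs). Scn9a was found in 32.4% and 19.5% after thinning, with intervals of 24.8 to 40.8% and 11.3 to 30.1% that overlap, and in 1.13% and 0.291% of endothelial barcodes. Sst was found in 5.63% (2.46 to 10.8%) of DPN and 0 of 77 Control cells, against 3.08% (2.09 to 4.37%) of DPN and 0 of 688 Control endothelial barcodes, so the DPN share was at the level of background within its interval. Without thinning Sst was found in 19.6% and 5.06% of low-Calca neurons and 13.9% and 0.540% of endothelial barcodes.

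Levels by depth were compared last. Since deep cells held nearly all UMIs, summed levels are those of deep cells. In cells of at least 2000 but under 10000 UMIs Scn9a had 55 and 20 UMIs (ratio 1.35, 0.798 to 2.38) and P2rx3 37 and 35 UMIs (0.520, 0.319 to 0.851). The interval of Scn9a in these shallower cells includes both 1 and the deep-cell ratio. P2rx3 was lower in DPN past 1.5-fold in these cells, unlike its summed level.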

How the data were processed

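The authors deposited raw UMI counts per gene and cell barcode for each library, made with Cell Ranger 3.1.0 and the STAR aligner. For the reference genome, the build was not given in the sources used here. The study's methods name down-sampling of reads across samples where required, without saying whether these matrices were down-sampled. The DPN library held 13168 barcodes and 115409375 UMIs, and the Control library 11011 barcodes and 121101966 UMIs. Counts of symbols carried by several identifiers (147 symbols) were summed.

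Cells were gated as described, with mitochondrial genes taken as symbols starting with Mt-. The members and gene lists were chosen with earlier results of these data known. The 33 lists held 607 genes, of which 23 had no symbol in the files. UMIs were summed per library and divided by the total. Levels carry exact Poisson, ratios exact conditional binomial and shares exact binomial (Clopper-Pearson) 95% intervals. With 1 pooled library per condition no p-value was computed. A gene needed at least 50 UMIs over both groups to be compared and a ratio of 1.5-fold with an interval leaving out 1 to be called. The limit for a count of 0 is 3 counts.

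Named genes were the members of the 5 subtype lists and members of other lists past the fold or at the highest levels. The 10 highest and 10 lowest ratios of a ranking were added. Genes ranked reached 100 UMIs and were detected in 10% or more of the gated cells of either library. They also had a finite ratio with an interval leaving out 1, and clone and locus names were left out. Clusters came from Leiden at resolution 1 on 20 principal components, 15 neighbours and 2000 variable genes. Leading genes were ranked by CPM + 5 in the cluster over CPM + 5 in the other low-Calca neurons, with a UMI in at least 30% of its cells. Endothelial barcodes had at least 30 UMIs per 10000 of Cldn5, Flt1, Pecam1, Emcn and Kdr. Likely doublets (1387 DPN and 970 Control barcodes by simulated doublets) were kept, and left out as an alternative. Other alternatives changed the gate limits, the depth limits, the scaling, the weight of each cell and the clustering. Deep cells alone and leaving out the cell with most UMIs of a gene were chosen after seeing the data. Scripts were tested on simulated data and used Python 3.11.15, numpy 2.4.6, scipy 1.17.1, pandas 2.3.3 and scanpy 1.11.5. Results for a few list members are not reported here.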

Additional observations from a re-analysis of the deposited data

Results flagged for a closer look

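In 4 genes the low-Calca and the peptidergic neurons of the same libraries lay past 1.5-fold in opposite directions between DPN and Control, and the difference between the classes was not tested. Bnc2 had a ratio of DPN to Control of 1.52 in low-Calca and 0.601 in peptidergic neurons, but 1.09 in low-Calca neurons with each cell weighing the same. Cartpt, the precursor of the CART peptides, had 2.47 and 0.386, with 62.8% of its DPN UMIs in 1 low-Calca cell and a ratio of 0.947 without likely doublets. Chodl had 0.609 in low-Calca and 7.15 in peptidergic neurons, and 7.52 in low-Calca neurons under 10% mitochondrial UMIs. Reg3b had 5.41 and 0.00855, with 1 DPN low-Calca cell holding 200 UMIs and a low-Calca ratio of 0.816 under 10% mitochondrial UMIs.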

How the results depend on the processing

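No paired analysis was possible because there was only 1 library of pooled rats per condition, so no replicate could be left out either. Of 3067 values of 196 named genes under 17 settings, 2538 stayed within their counting interval, 509 moved and 20 changed direction. A change of direction was counted only for genes called higher or lower in the main setting. Having no minimum of UMIs could not move a ratio, and limits of 2000 or 10000 UMIs kept nearly all UMIs. All 196 genes stayed under each of these. Fewer stayed under 10% mitochondrial UMIs (47 of 176), within 4 median absolute deviations (12 of 87), with each cell weighing the same (71 of 196) and after thinning (10 of 64). The cause was not tested unless stated. The share of barcodes gated in DPN and Control was 1.62% and 0.998% with AY172581 genes counted as mitochondrial, 0.418% and 0.2425% within 4 median absolute deviations, and 0.832% and 0.567% in deep cells alone. In DPN alone it was 1.002% with at least 30 raw UMIs, 0.993% with Calca and Tac1 under 25 and 1.477% under 100 per 10000. Under 10% mitochondrial UMIs the Control share rose to 1.24% (32 of 2583 barcodes). The DPN share stayed within its main interval of 1.02 to 1.43% under that limit. The 310 lower genes of 9895 (3.13%) became 523 of 6481 (8.07%) under 10% mitochondrial UMIs. With each cell weighing the same 1101 of 9895 were lower, but there the 1.5-fold limit alone was used, without an interval. Within 4 deviations 91 genes were higher and 176 lower of 976, and after thinning 31 and 44 of 704, in which far fewer genes could be compared. Of the 5 subtype lists, 21 genes were higher and 4 lower of 72. Higher members were 2 within 4 deviations and 2 after thinning. Lower members were 7 with Calca and Tac1 under 25, 8 under 10% mitochondrial UMIs and 8 with AY172581 genes counted. They were 8 without the 5 deepest cells of each library, 2 after thinning and, by the fold alone, 16 with each cell weighing the same. The log2 ratio turned under 10% mitochondrial UMIs (49 DPN and 32 Control cells) to 1.68 for Asic1, -3.16 for Asic3, 2.91 for Chodl, -0.022 for Kcna1, 0.40 for Kcns3, 0.76 for Pcp4, 1.09 for Pcp4l1 and -0.29 for Reg3b. Within 4 deviations it was 1.04 for Asic1 and -0.014 for Lifr. With Calca and Tac1 under 100 it was -0.030 for Cartpt and -0.49 for Nppb, and without likely doublets -0.078 for Cartpt. With each cell weighing the same it was -1.155 for Cysltr2, 0.15 for Dcn, -0.015 for Il6st, -0.15 for Kcnma1, -0.39 for Lcorl, -1.135 for Scn3a and -0.42 for Trpc6. At resolution 0.5 there were 6 clusters, and with gene means centred within each library 9. Cells under 10000 UMIs held about 1% of all UMIs, so summed levels describe the deep cells, and rare transcripts cannot be told from free RNA in shallow ones.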
